A study of Mus musculus with 29 samples.

Results

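Osteoblastic cells (OBC) and mesenchymal cells (MSC) were sorted from wild-type (WT) mouse niches, the surroundings in which transplanted blood stem cells regenerate, and 3 libraries of OBC were compared with 3 libraries of MSC. These 6 libraries are 6 of 29 in the series and were chosen by population and niche genotype alone, with no use of measured values. The study addresses niches with a full or reduced dose of Wnt5a, which encodes a secreted signal. Beside both WT groups, values are given from 3 WT libraries of endothelial cells (EC) and from 3 OBC and 3 MSC libraries of the niche genotype Wnt5a, which the study describes as haploinsufficient, that is, short of 1 working copy of the gene. Wnt5a itself was not analysed here, so the niche genotype is given as labelled. All of these libraries carry the strain name 129Ly5.1, and the age of the animals, the cell number per library and whether animals were pooled are not stated in the labels. Nor do the labels say that the libraries of a group came from separate animals, so p-values measure the spread between these libraries, which may be technical.

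Osteoblasts are bone-forming cells that secrete type I collagen and the non-collagenous proteins that take up mineral, and they arise from mesenchymal progenitors in bone and marrow. Mesenchymal cells of the marrow also supply blood stem cells with signals such as the chemokine CXCL12, while the endothelium of marrow vessels is marked by VEGF receptors, endothelial cadherin and lipid-handling proteins. In mouse bone, SCA-1 (encoded by Ly6a) and ALCAM (encoded by Alcam) are surface proteins commonly used to sort mesenchymal and osteoblastic fractions, and PECAM1 is used to sort endothelium.

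Each library was counted in unique molecular identifiers (UMIs), tags that count an RNA molecule once however often its copy is sequenced. The OBC WT libraries held 26088, 29772 and 10635 UMIs (replicates 7, 8 and 9), and the MSC WT libraries 50421, 37352 and 45573 (replicates 1, 2 and 3). Of 18194 genes, 1099 had enough UMIs to be tested across the 18 niche libraries. Levels are given as CPM, UMIs per 1000000 of a library's tested UMIs after TMM scaling, which makes libraries of different composition comparable. A count of 3 UMIs, taken as the floor of detection, corresponds to 226, 209 and 461 CPM in the OBC WT libraries and to 91.9, 115 and 95.7 CPM in the MSC WT libraries. With every library brought down to 10635 UMIs, OBC WT held 3428.7 ± 138.5 genes and MSC WT 4187.8 ± 74.2 genes (SD, n = 3 each). The groups did not overlap, and the exact two-sided permutation p was 0.1, the smallest that 3 against 3 libraries can give. With haemoglobin, immunoglobulin, mitochondrial and ribosomal RNA overlapping transcripts left out, the difference of OBC WT minus MSC WT was -189.5 genes, beside -759.1 with them. The first value was taken at the smallest total then left, a depth below 10635 UMIs, so the change reflects depth as well.

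The labels were checked against markers first. The libraries labelled OBC carried bone matrix transcripts, described below. The libraries labelled MSC carried endothelial transcripts at shares near those of the libraries labelled EC. The 29 endothelial genes with a row in the table took 0.655 to 1.26% of UMIs in OBC WT, 3.56 to 4.13% in MSC WT and 2.45 to 4.73% in EC WT. The lowest EC WT value is that of replicate 14, which stood apart with 24.3% haemoglobin UMIs, and without it EC WT lay at 4.44 and 4.73%, above every MSC WT library. Between MSC WT and EC WT, 22 of 1099 genes (2%) passed edgeR's test, all 22 higher in MSC WT. None of the 25 tested endothelial genes was among them, a count near that background. The 22 include the fibroblast matrix genes Col3a1, Dcn, Gsn, Clec3b and Pi16 and the antibody genes Igha, Igkc and Jchain. Genes of the mesenchymal progenitor list took 0.181 to 0.235% of UMIs in OBC WT, 0.535 to 0.677% in MSC WT and 0.457 to 0.8% in EC WT. Of 25 with a row, 9 were at 0 in every OBC WT library, 3 in every MSC WT library and 8 in every EC WT library. Pdgfra, a growth factor receptor used to sort such cells, had 0, 0 and 0 UMIs in OBC WT and 3, 3 and 1 in MSC WT. Pdgfrb, of the same list, went the other way, with 4, 9 and 0 UMIs in OBC WT and 4, 1 and 0 in MSC WT. Both genes had too few UMIs to be tested. Alcam, whose protein is used to sort osteoblastic cells, had 0 UMIs in all 6 libraries. The MSC label is therefore used below as the name of the sort. Which cells gave the endothelial transcripts was not tested, and in such bulk libraries fewer cells of a type and less RNA per cell cannot be told apart.

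**Figure D1:**
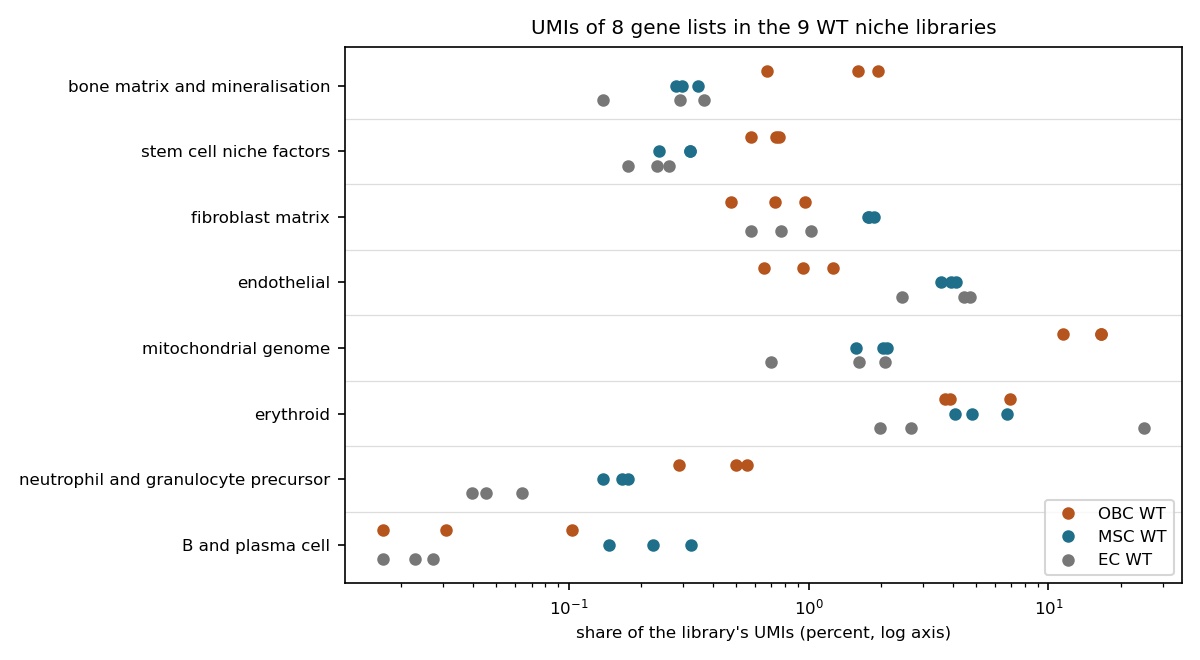
Share of each WT niche library's UMIs (percent, log axis) taken by 8 gene lists, with 1 point per library and OBC WT, MSC WT and EC WT from top to bottom within a list. Endothelial UMIs lie at 0.655 to 1.26% in OBC WT and at 3.56 to 4.13% in MSC WT, while mitochondrial UMIs lie at 11.5 to 16.6% in OBC WT and at 1.58 to 2.12% in MSC WT.

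In all, 298 of 1099 genes (27.1%) passed edgeR's quasi-likelihood test (Benjamini-Hochberg adjustment, threshold 0.05), 136 higher (12.4%) and 162 lower (14.7%) in OBC WT than in MSC WT. These shares are the background for each count of listed genes below, and a list with few tested genes can lie near them. Among the leading higher genes were bone matrix genes and mitochondrial transcripts, and among the leading lower genes were Gpihbp1, Timp4, Aqp1, Kdr, Kank3 and Fbln2. At an unadjusted p under 0.05 there were 430 genes. In 466 genes (42.4%) the 3 OBC WT values did not overlap the 3 MSC WT values, and 275 of the 298 genes were among them. The median log2 fold change over all genes was -0.14. RLE scaling in place of TMM moved this median by -0.19 and gave 332 genes, of which 36.1% were higher in OBC WT, against 45.6% with TMM. Without OBC WT replicate 8, the deepest of its group, 192 genes passed. Of the 162 lower genes, 62 rest on 3 or fewer UMIs in the OBC WT libraries together, so the size of those folds is loose.

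**Figure D2:**
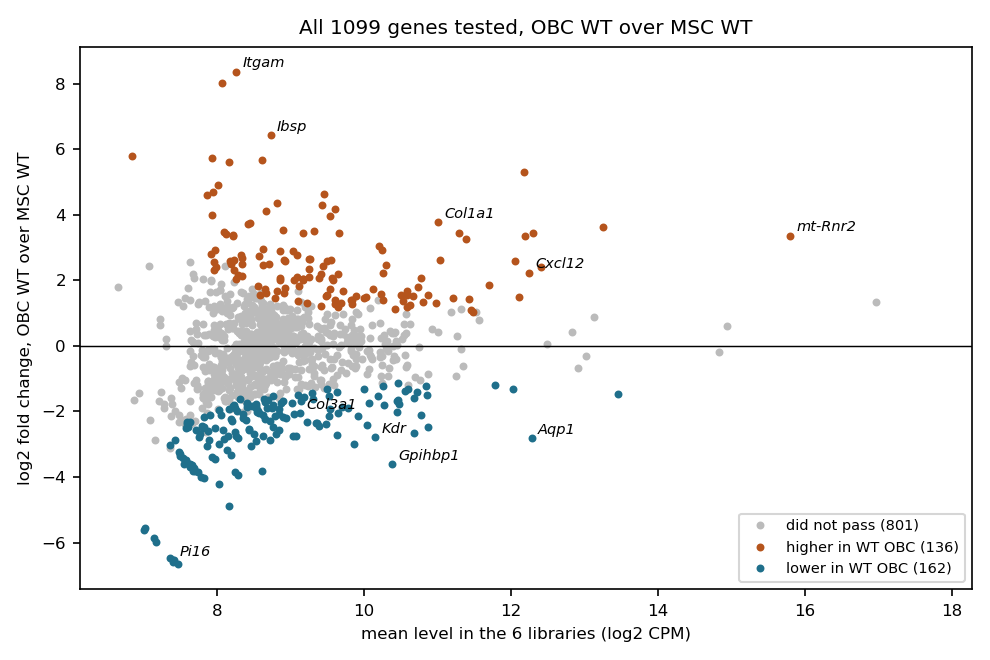
Log2 fold change of OBC WT over MSC WT (vertical axis) against the mean level in the 6 libraries (horizontal axis, log2 CPM) for all 1099 genes tested. The 136 genes higher in OBC WT include Col1a1, Ibsp and Cxcl12, and the 162 lower ones include Kdr, Gpihbp1 and Aqp1.

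Promoters of members of the 2 leading groups are shown to let a reader see their sequence, since these genes moved together: Spp1 and Ibsp, bone matrix genes higher in OBC WT, and Flt1 and Egfl7, endothelial genes lower there. They were picked with the matches known. Each window runs from 250 bases before to 50 bases after a RefSeq gene start (build GRCm38.p6), written 5′ to 3′ on the gene's strand. The windows lie at chr5:104434861-104435160 (plus strand) for Spp1, chr5:104299037-104299336 (plus) for Ibsp, chr5:147725962-147726261 (minus) for Flt1 and chr2:26583615-26583914 (plus) for the second of 3 starts of Egfl7. Capitals mark 3 letter patterns searched on both strands. TGTGGT is read by RUNX factors of the osteoblast lineage, and AGGAAGT by ETS factors, many of which act in endothelium. TATAAA holds the letters of the TATA box, wherever in the window they occur.
Spp1: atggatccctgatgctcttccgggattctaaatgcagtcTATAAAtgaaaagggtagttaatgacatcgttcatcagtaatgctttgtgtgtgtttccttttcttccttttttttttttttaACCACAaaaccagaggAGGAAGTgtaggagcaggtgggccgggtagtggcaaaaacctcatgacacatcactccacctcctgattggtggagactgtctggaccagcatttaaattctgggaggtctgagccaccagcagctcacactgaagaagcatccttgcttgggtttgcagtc
Ibsp: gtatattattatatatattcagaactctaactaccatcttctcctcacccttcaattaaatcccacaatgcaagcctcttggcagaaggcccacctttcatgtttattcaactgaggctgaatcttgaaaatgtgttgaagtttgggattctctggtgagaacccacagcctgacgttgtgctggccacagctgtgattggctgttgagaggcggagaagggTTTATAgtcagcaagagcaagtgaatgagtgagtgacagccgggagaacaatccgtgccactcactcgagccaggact
Flt1: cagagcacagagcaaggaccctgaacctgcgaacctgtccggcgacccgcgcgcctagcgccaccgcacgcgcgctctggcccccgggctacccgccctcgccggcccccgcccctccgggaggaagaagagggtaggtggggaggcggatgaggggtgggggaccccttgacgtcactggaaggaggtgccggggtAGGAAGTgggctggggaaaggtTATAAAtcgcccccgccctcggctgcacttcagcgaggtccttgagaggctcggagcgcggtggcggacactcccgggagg
Egfl7: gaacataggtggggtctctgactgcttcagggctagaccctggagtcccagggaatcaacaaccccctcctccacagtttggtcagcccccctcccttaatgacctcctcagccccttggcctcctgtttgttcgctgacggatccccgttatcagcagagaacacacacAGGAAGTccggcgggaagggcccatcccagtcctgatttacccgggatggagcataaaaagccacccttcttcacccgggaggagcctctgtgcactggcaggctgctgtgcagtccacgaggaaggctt
In this Spp1 window, TGTGGT stood on the opposite strand, its first base 128 bases before the start, and AGGAAGT also occurred, 112 bases before it. The Ibsp window held TATAAA on the opposite strand 28 bases before the start. On the gene's strand, TATAAA began 211 bases before the start in Spp1 and 31 bases before it in Flt1. AGGAAGT began 53 bases before the start of Flt1 and 80 bases before that of Egfl7. The third start of Egfl7 and the windows of Kdr, Tie1, Cd36, Ushbp1 and Robo4, endothelial genes too, held no AGGAAGT, and those of Ibsp and Col1a2 held no TGTGGT. Of the tested genes, 753 had a promoter in the table. AGGAAGT was present in 7 of 73 genes higher in OBC WT (9.59%), 24 of 115 lower genes (20.9%), 77 of 753 tested genes (10.2%) and 10.7% of all 27025 genes with a promoter (9.35% of their 32851 windows). TGTGGT was present in 6 of 73 higher genes (8.22%), 19 of 115 lower genes (16.5%), 109 of 753 tested genes (14.5%) and 18.9% of all genes (16.8% of windows). TATAAA was present in 11 of 73 higher genes (15.1%), 17 of 115 lower genes (14.8%), 120 of 753 tested genes (15.9%) and 15.7% of all genes (13.6% of windows). These are counts of letters in 300-base windows and were not tested. A gene with several starts was counted once.

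Of 6 tested bone matrix genes, 4 were higher in OBC WT (Col1a1, Col1a2, Ibsp and Spp1) and 0 were lower, with a median log2 fold change of 3.52. Col1a1 (chr11:94936224-94953042, GRCm38, plus strand) and Col1a2 (chr6:4504814-4541544, plus) encode the chains of type I collagen. Col1a1 stood at 8887, 10779 and 3229 CPM in OBC WT, against 674, 500 and 511 CPM in MSC WT (a log2 fold change of 3.78 with SE 0.45; edgeR adjusted p = 2.23e-08). Col1a2 stood at 13255, 11614 and 2307 CPM in OBC WT, against 1103, 1077 and 702 CPM in MSC WT (3.26, SE 0.47, edgeR adjusted p = 1.25e-06). For both genes the lowest OBC WT library, replicate 9, was above the highest MSC WT library. In EC WT, Col1a1 averaged 60.7 ± 23.4 CPM and Col1a2 90.4 ± 39.5 CPM (SD, n = 3).

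Ibsp (chr5:104299171-104311469, plus strand), bone sialoprotein, had 31, 45 and 7 UMIs in OBC WT, against 1, 1 and 0 UMIs in MSC WT. That is a ratio of scaled UMIs of 109 (exact 95% counting interval 29.3 to 918; edgeR adjusted p = 7.68e-09). Spp1 (chr5:104435118-104441050, plus strand), which encodes osteopontin, had 27, 36 and 6 UMIs in OBC WT, against 3, 0 and 0 in MSC WT, a ratio of 60.6 (19.9 to 301; edgeR adjusted p = 1.8e-07). Every OBC WT library had at least 6 UMIs of each gene and every MSC WT library at most 3. Such intervals cover counting error only. Bglap, osteocalcin, was below the filter with 20, 7 and 0 UMIs in OBC WT and 1, 0 and 0 in MSC WT. It shares near-identical sequence with Bglap2, so its counts are uncertain.

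Members of the same list did not all differ. Sparc, osteonectin, stood at 6929, 2712 and 2614 CPM in OBC WT, against 2635, 2230 and 2361 CPM in MSC WT, and did not pass (log2 fold change 0.78, SE 0.42, edgeR adjusted p = 0.159). Replicate 7 was high and the other OBC WT libraries lay near the highest MSC WT value. Alpl, also of the list and below the filter, had 7, 3 and 0 UMIs in OBC WT and 6, 4 and 5 in MSC WT. In the deeper EC WT libraries it had 13, 5 and 19. Dmp1 had 0 UMIs in every OBC WT and MSC WT library. Of the regulators of osteoblasts, 4 were tested and 2 passed, both higher. They are Cdh11, a cadherin of osteoblasts and other mesenchymal cells (7, 12 and 3 UMIs in OBC WT, against 2, 0 and 0 in MSC WT; edgeR adjusted p = 0.00144), and Pth1r, the receptor for parathyroid hormone (10, 9 and 2 UMIs in OBC WT, against 1, 1 and 1 in MSC WT; edgeR adjusted p = 0.00237). The other 2 tested regulators, Cd200 and Atf4, had negative log2 fold changes and did not pass. Cd200 had 4, 9 and 2 UMIs in OBC WT and 44, 32 and 19 in MSC WT. Atf4 had 3, 4 and 4 in OBC WT and 6, 23 and 25 in MSC WT. The whole regulator list took 0.122 to 0.151% of UMIs in OBC WT and 0.121 to 0.158% in MSC WT. The master regulators Runx2 and Sp7 had 3 UMIs each over the OBC WT libraries and 0 over MSC WT, too few to compare. Of 5 tested genes for collagen processing, 0 passed edgeR's test. Serpinh1, the collagen chaperone HSP47, stood at 1506, 1182 and 615 CPM in OBC WT and at 735, 923 and 798 CPM in MSC WT (0.50, SE 0.42, edgeR adjusted p = 0.395).

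**Figure D3:**
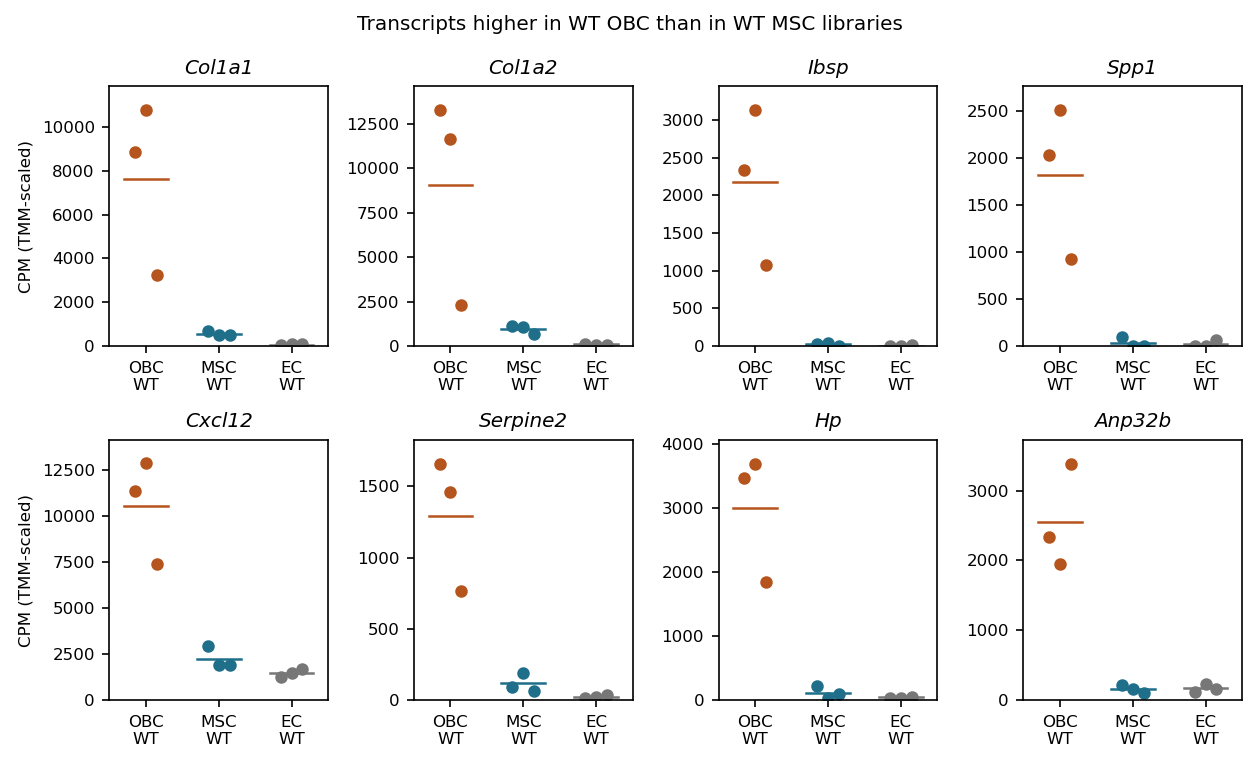
CPM of 8 genes higher in OBC WT, with 1 point per library and a line at the mean of the 3 libraries, for OBC WT, MSC WT and EC WT from left to right. For each gene the lowest OBC WT library lies above the highest MSC WT library; OBC WT replicate 9 is the lowest of its group for the first 7 genes and the highest, at 3383 CPM, for Anp32b.

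Signals to blood cells and other secreted proteins were also among the higher genes. Cxcl12 (chr6:117168535-117181367, plus strand), the chemokine that retains blood stem cells in marrow, stood at 11372, 12865 and 7381 CPM in OBC WT, against 2911, 1922 and 1915 CPM in MSC WT (log2 fold change 2.23, SE 0.41, edgeR adjusted p = 3.84e-05). The groups did not overlap. Of 5 tested factors of the stem cell niche, 3 were higher (Cxcl12, Ebf3 and Vcam1) and 1 was lower (Adgrl4). The calls of Ebf3 and Vcam1 were lost without a filter on low counts and when single libraries were left out (Ebf3 without OBC WT replicate 8, and Vcam1 without OBC WT replicate 7 or MSC WT replicate 1 or 3). Kitl, stem cell factor, did not pass, at 602, 695 and 461 CPM in OBC WT and 797, 1038 and 574 CPM in MSC WT (edgeR adjusted p = 0.563). Lepr, the leptin receptor that marks perivascular mesenchymal cells of marrow, was below the filter with 10, 8 and 0 UMIs in OBC WT and 1, 0 and 0 in MSC WT.

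Hp (chr8:109575128-109579172, minus strand) encodes haptoglobin, which binds free haemoglobin. It stood at 3464, 3686 and 1845 CPM in OBC WT, against 214, 38 and 96 CPM in MSC WT (4.62, SE 0.52, edgeR adjusted p = 2.91e-09). Serpine2, an inhibitor of serine proteases, stood at 1657, 1460 and 769 CPM in OBC WT, against 92, 192 and 64 CPM in MSC WT (3.54, SE 0.56, edgeR adjusted p = 4.14e-06). Both were higher in every OBC WT library than in any MSC WT library. Complement component C4b was higher too (2.89, SE 0.63, edgeR adjusted p = 0.000625), and of 4 tested complement and acute phase genes 2 were higher and 0 lower. Tnc, tenascin C, had 29, 16 and 2 UMIs in OBC WT, against 0, 0 and 2 in MSC WT, a ratio of 61.9 (16.2 to 526; edgeR adjusted p = 4.14e-06), and was singled out after its values were seen. Igfbp4, a binding protein of insulin-like growth factors, was higher (2.58, SE 0.60, edgeR adjusted p = 0.00202), as was Igfbp5, whose call was lost without OBC WT replicate 7 and without the filter. Of 5 tested genes of that axis, 2 were higher and 2 lower (Igfbp7 and Igfbp3). The call of Igfbp7 was lost without OBC WT replicate 9, without MSC WT replicate 1 or 2 and in the 9 WT libraries alone, and that of Igfbp3, which lay at the threshold, in all but 2 of the alternative settings in which it was tested (RLE scaling and leaving out OBC WT replicate 9).

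Not every higher gene was lowest in OBC WT replicate 9. Anp32b, a nuclear histone chaperone, stood at 2335, 1947 and 3383 CPM in OBC WT, against 214, 154 and 96 CPM in MSC WT (3.97, SE 0.50, edgeR adjusted p = 3.17e-08). Naa15, a subunit of an N-terminal acetyltransferase, stood at 1657, 2643 and 4613 CPM in OBC WT, against 214, 0 and 191 CPM in MSC WT (4.29, SE 0.60, edgeR adjusted p = 1.29e-06). Slc17a9, a vesicular nucleotide transporter, had 15, 18 and 14 UMIs in OBC WT and 2, 2 and 2 in MSC WT (4.36, SE 0.63, edgeR adjusted p = 6.1e-07). On the CPM scale all 3 genes were highest in replicate 9, and no OBC WT library overlapped MSC WT. Over all 136 higher genes, 40 (29.4%) were highest in replicate 9, beside 327 of 1099 tested genes (29.8%).

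Every tested member of the mitochondrial genome list was higher in OBC WT, 9 of 9, with a median log2 fold change of 3.36. Counting those outside the list too, 11 of 13 tested mitochondrial genes were higher and 0 lower. The largest share came from the ribosomal RNA mt-Rnr2, with 8.82 to 10.7% of UMIs in OBC WT and 1.02 to 1.37% in MSC WT. Mt-Nd5, a subunit of respiratory complex I, stood at 3464, 4103 and 1230 CPM in OBC WT, against 214, 192 and 96 CPM in MSC WT (4.16, SE 0.51, edgeR adjusted p = 2.26e-08). Mt-Co1, a subunit of complex IV, stood at 4820, 2782 and 1845 CPM in OBC WT, against 429, 461 and 383 CPM in MSC WT (2.92, SE 0.40, edgeR adjusted p = 2.92e-07). The groups did not overlap for either gene. Of 38 tested oxidative phosphorylation genes encoded in the nucleus, 0 were higher and 2 were lower, and the median was -0.20, beside -0.14 over all genes. A high share of mitochondrial UMIs often accompanies poor RNA quality or damaged cells, and transcripts overlapping ribosomal RNA took 10.8 to 12.7% of UMIs in OBC WT, against 4.81 to 7.24% in MSC WT. The part of RNA quality in these differences was not tested.

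Chaperones were mixed. Of 8 tested genes for folding in the endoplasmic reticulum, 3 were higher (Hsp90b1, Canx and Hspa5) and 0 lower, with a median of 0.48. Hsp90b1 stood at 2109, 2504 and 2460 CPM in OBC WT, against 643, 961 and 830 CPM in MSC WT (1.54, SE 0.37, edgeR adjusted p = 0.00166). All 3 calls were lost without the filter on low counts, that of Canx also without OBC WT replicate 7, and that of Hspa5 also under RLE scaling, with DESeq2 and without any 1 of 5 libraries (OBC WT 7 and 8, MSC WT 1, 2 and 3). Of 10 tested heat shock genes, 2 were higher and 2 lower, beside 12.4% higher and 14.7% lower over all tested genes. Hsp90aa1, the inducible cytosolic HSP90, stood at 2937, 2782 and 2768 CPM in OBC WT, against 368, 423 and 734 CPM in MSC WT (2.47, SE 0.46, edgeR adjusted p = 7.62e-05). Hspb1, a small heat shock protein, had 2, 1 and 0 UMIs in OBC WT, against 19, 11 and 25 in MSC WT, a fold of 6.96 lower (2.26 to 34.8; edgeR adjusted p = 0.00453). HSP90 genes have near-identical pseudogenes, so their counts are uncertain.

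On the other side, 15 of 25 tested endothelial genes were lower in OBC WT and 0 were higher, with a median of -1.91. With 1 library left out, 12 to 17 were lower. Kdr (chr5:75932827-75978458, minus strand), VEGF receptor 2, stood at 452, 209 and 615 CPM in OBC WT, against 2758, 2807 and 2649 CPM in MSC WT (-2.79, SE 0.49, edgeR adjusted p = 2.02e-05). Gpihbp1 (chr15:75596628-75599481, plus strand), which carries lipoprotein lipase across capillary endothelium, stood at 377, 348 and 308 CPM in OBC WT, against 4259, 4768 and 3797 CPM in MSC WT (-3.59, SE 0.50, edgeR adjusted p = 2.92e-07). Egfl7 (chr2:26580014-26593120, plus strand), a protein secreted by endothelium, stood at 1054, 278 and 615 CPM in OBC WT, against 4167, 4076 and 4148 CPM in MSC WT (-2.67, SE 0.50, edgeR adjusted p = 8.06e-05). For all of these the groups stood wide apart, and the MSC WT means of 2740, 4270 and 4130 CPM were close to the EC WT means of 2010, 4210 and 4050 CPM.

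In the whole endothelial list, 10 of the 25 tested genes did not pass. Cdh5, endothelial cadherin, stood at 452, 487 and 1230 CPM in OBC WT, against 2390, 2845 and 2712 CPM in MSC WT (-2.02, SE 0.50, edgeR adjusted p = 0.00205). Flt1, VEGF receptor 1, was lower (-1.49, SE 0.40, edgeR adjusted p = 0.00385). Cd36, a fatty acid transporter of capillaries, was lower (-2.46, SE 0.49, edgeR adjusted p = 1.4e-04), as was, outside the list, the water channel Aqp1, with 1958, 1878 and 1691 CPM in OBC WT, against 11735, 15841 and 11838 CPM in MSC WT (-2.82, SE 0.48, edgeR adjusted p = 1.15e-05). Nos3, endothelial nitric oxide synthase and also outside the list, had 0 UMIs in all OBC WT libraries and 8, 11 and 15 in MSC WT, at least 4.3-fold lower against a floor of 3 UMIs over the group, and was picked out after its values were seen. Pecam1 had 18, 9 and 11 UMIs in OBC WT and 77, 69 and 54 in MSC WT, and its log2 fold change of -0.94 (SE 0.40) did not pass (edgeR adjusted p = 0.0688). It did pass under RLE scaling, with DESeq2, with limma voom, with a minimum count of 20, in the 6 libraries alone and without MSC WT replicate 3. Plvap, a protein of fenestrated endothelium, had 0, 2 and 2 UMIs in OBC WT and 2, 1 and 3 in MSC WT, at or near the floor.

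**Figure D4:**
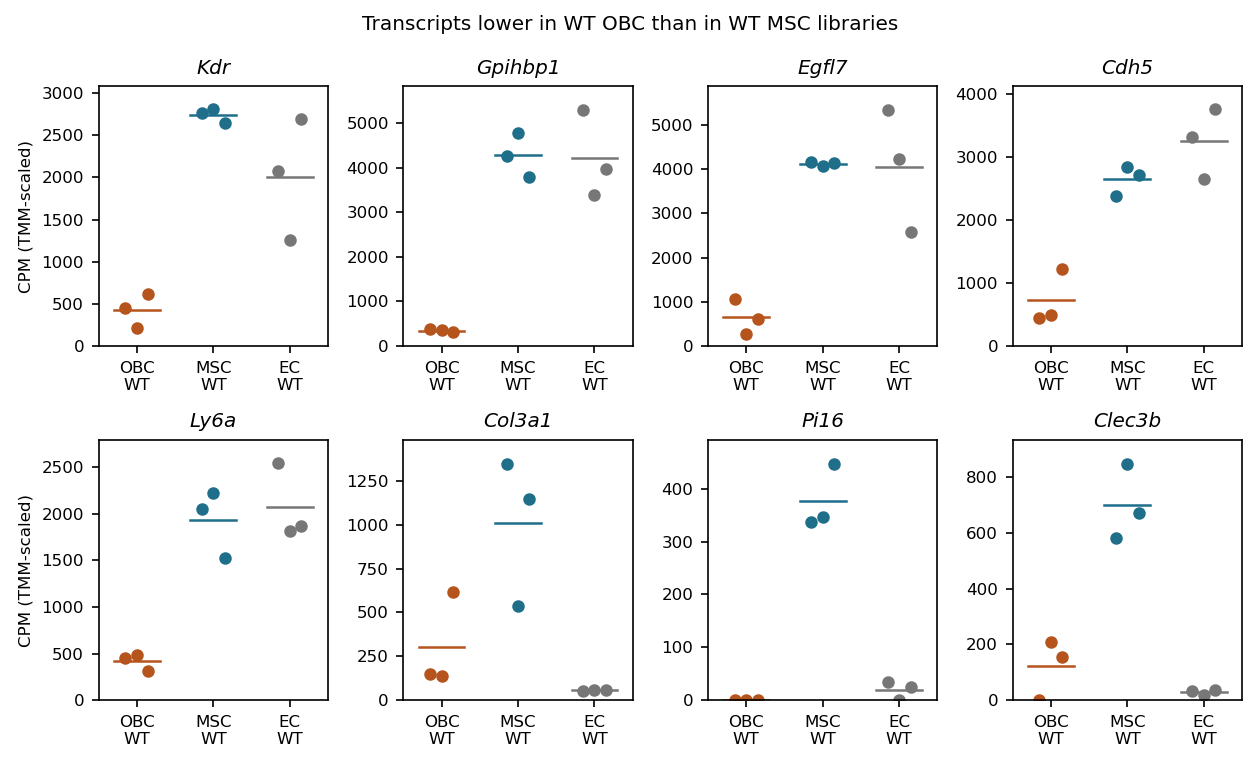
CPM of 8 genes lower in OBC WT, with 1 point per library and a line at the mean of the 3 libraries, for OBC WT, MSC WT and EC WT from left to right. The endothelial genes Kdr, Gpihbp1, Egfl7 and Cdh5 and Ly6a stand at like levels in MSC WT and EC WT, whereas Col3a1, Pi16 and Clec3b are highest in MSC WT.

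Of 7 tested surface and lineage genes of mesenchymal progenitors, 4 were lower in OBC WT and 0 higher, and without OBC WT replicate 8 only 2 were lower. Over all tested genes, 14.7% were lower and 12.4% higher. Ly6a (chr15:74994877-74998031, minus strand), the gene of SCA-1, stood at 452, 487 and 308 CPM in OBC WT, against 2053, 2230 and 1532 CPM in MSC WT (-2.15, SE 0.44, edgeR adjusted p = 2.61e-04). Endothelium also carries SCA-1, and the EC WT mean was 2080 ± 410 CPM, beside 1940 ± 363 CPM in MSC WT (SD, n = 3 each). Its neighbour in the same family, Ly6c1, was lower as well (-2.10, SE 0.41, edgeR adjusted p = 1.37e-04), and since Ly6 genes share sequence their counts are uncertain. The remaining 2 lower genes, Cd34 and Eng, mark endothelium too, and the call of Cd34 was also lost without OBC WT replicate 9 or MSC WT replicate 1 and with limma voom.

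Fibroblast matrix genes went in both directions. Of 16 tested, 7 were lower in OBC WT (Fbln2, Sparcl1, Col3a1, Pi16, Col4a1, Clec3b and Gsn) and 2 were higher (Mgp and Bgn), with a median of -1.46. Pi16, which marks a fibroblast population of many mouse tissues, had 0 UMIs in all OBC WT libraries and 11, 9 and 14 in MSC WT, at least 4.3-fold lower. Col3a1, the chain of type III collagen, stood at 151, 139 and 615 CPM in OBC WT, against 1348, 538 and 1149 CPM in MSC WT (-2.05, SE 0.56, edgeR adjusted p = 0.00454). Replicate 9 of OBC WT was above the lowest MSC WT library, and the call was lost without OBC WT replicate 8. Those of Clec3b (without OBC WT replicate 7) and Gsn (without OBC WT replicate 8 or MSC WT replicate 3) were lost likewise. In EC WT, Col3a1 averaged 55.9 ± 4.73 CPM (SD, n = 3), and it was higher in MSC WT than there (4.09, edgeR adjusted p = 6.56e-08). Of the 16 tested genes, 9 were higher in MSC WT than in EC WT and 0 lower. Not all 7 lower genes were scarce in EC WT, whose libraries were deeper (83254, 95216 and 117989 UMIs). Sparcl1 had 181, 134 and 194 UMIs there, against 101, 74 and 56 in MSC WT. Col4a1 had 293, 189 and 238 there, against 123, 91 and 48, and Fbln2 had 29, 30 and 76. Fbln2, an elastic fibre protein, had 2, 0 and 0 UMIs in OBC WT and 36, 26 and 23 in MSC WT, a fold of 16.1 lower (4.33 to 135; edgeR adjusted p = 7.62e-05). Mgp, an inhibitor of mineralisation, was higher in OBC WT replicates 7 and 8 with 2259 and 1669 CPM but stood at 154 CPM in replicate 9, against 214, 38 and 319 CPM in MSC WT (2.89, SE 0.61, edgeR adjusted p = 0.000559). The call of Bgn was lost under RLE scaling, with DESeq2, without the filter and when any library other than OBC WT replicate 9 was left out. Dcn and Fn1, decorin and fibronectin, did not pass (-1.21 and -1.22, edgeR adjusted p = 0.0984 and 0.0878).

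Several other lower genes lay outside the endothelial and fibroblast matrix lists. Timp4, an inhibitor of matrix proteases, stood at 377, 209 and 308 CPM in OBC WT, against 2666, 2615 and 1915 CPM in MSC WT (-3.01, SE 0.47, edgeR adjusted p = 2.89e-06). Cav1, caveolin, was lower (-2.41, SE 0.47, edgeR adjusted p = 1.07e-04), as was Sgk1, a kinase induced by glucocorticoids (-2.38, SE 0.49, edgeR adjusted p = 2.57e-04). Timp4 and Sgk1 were abundant in the deeper EC WT libraries too. Timp4 had 197, 124 and 149 UMIs there, against 87, 68 and 60 in MSC WT. Sgk1 had 104, 69 and 128 there, against 50, 41 and 46 in MSC WT. Kank3 had 1, 0 and 0 UMIs in OBC WT, against 14, 36 and 37 in MSC WT, a fold of 33.0 lower (5.77 to 1320; edgeR adjusted p = 3.84e-05). Of 26 tested immediate early genes, 1 was higher and 3 were lower, with a median of 0.08. Of 9 tested interferon response genes, 0 were higher and 1 was lower (Ly6e). All 9 had negative log2 fold changes, with a median of -0.74, beside -0.14 over all genes. The interferon list took 0.254 to 0.441% of UMIs in OBC WT and 0.562 to 0.926% in MSC WT. Over all tested genes, 12.4% were higher and 14.7% lower. Among 31 tested genes of the actin cytoskeleton, the theme named in the study's title, 1 was higher (Tpm1) and 2 were lower (Tmsb4x and Rac1), with a median of -0.37. None of these 3 calls held throughout: that of Tpm1 was lost without OBC WT replicate 8 or without the filter, that of Tmsb4x without OBC WT replicate 7 or MSC WT replicate 1, and that of Rac1 without any 1 of the OBC WT libraries or MSC WT replicate 1.

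Transcripts of blood cells differed as well. All 5 tested genes of neutrophils and their precursors were higher in OBC WT, with a median of 2.22, and the whole list of 20 genes with a row took 0.287 to 0.555% of UMIs in OBC WT and 0.139 to 0.176% in MSC WT. Of these genes, 1 was at 0 in every OBC WT library and 5 in every MSC WT library. S100a9, a subunit of calprotectin, stood at 1356, 2921 and 3537 CPM in OBC WT, against 613, 500 and 511 CPM in MSC WT (2.22, SE 0.43, edgeR adjusted p = 1.07e-04). Camp, another of the 5, had 14, 21 and 1 UMIs in OBC WT and 15, 5 and 15 in MSC WT, and its groups overlapped. The count of 5 fell to 3 under RLE scaling, with DESeq2, without the filter, and without OBC WT replicate 8 or MSC WT replicate 1 or 2. Itgam, an integrin chain of myeloid cells also called CD11b, had 14, 20 and 11 UMIs in OBC WT, against 0, 0 and 0 in MSC WT, at least 39.5-fold higher (edgeR adjusted p = 3.17e-07). The other of 2 tested genes of the monocyte, macrophage and dendritic cell list, Ly6c2, had 1, 6 and 0 UMIs in OBC WT, against 28, 25 and 19 in MSC WT, and was lower (-1.99, SE 0.62, edgeR adjusted p = 0.0121). Its call was lost without OBC WT replicate 7 or 9, and its counts are uncertain because Ly6 genes share sequence. The whole monocyte, macrophage and dendritic cell list took 0.0805 to 0.138% of UMIs in OBC WT and 0.0571 to 0.0964% in MSC WT, and these ranges overlapped. Of its 22 genes with a row, 9 were at 0 in every OBC WT library and 12 in every MSC WT library. The pan-leukocyte gene Ptprc, which codes for CD45, had 0, 0 and 1 UMIs in OBC WT and 0, 2 and 0 in MSC WT. Erythroid genes took 3.71 to 6.94% of UMIs in OBC WT and 4.09 to 6.71% in MSC WT, and 0 of 14 tested passed edgeR's test. Of 3 tested B and plasma cell genes, 1 was lower: Igha, an antibody heavy chain, stood at 226, 139 and 615 CPM in OBC WT, against 2175, 1230 and 2042 CPM in MSC WT (-2.72, SE 0.65, edgeR adjusted p = 0.00221). What part blood cells had in the gene differences was not tested.

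The 2 tested adipocyte genes went in opposite directions. Adipoq, adiponectin, had 13, 8 and 3 UMIs in OBC WT and 1, 1 and 0 in MSC WT, a ratio of 31.6 (7.85 to 276; edgeR adjusted p = 0.00122). Lpl, lipoprotein lipase, had 22, 14 and 2 UMIs in OBC WT and 75, 84 and 45 in MSC WT and was lower (-1.13, SE 0.43, edgeR adjusted p = 0.0441). That call was lost without OBC WT replicate 8 or 9 or MSC WT replicate 1 or 2, with limma voom, without the robust step, without the abundant variable transcripts and in the 9 WT libraries alone. The whole adipocyte list took 0.0658 to 0.138% of UMIs in OBC WT and 0.103 to 0.238% in MSC WT. Chondrocyte genes took 0.0094 to 0.0437% of UMIs in OBC WT and 0.00219 to 0.0119% in MSC WT. Skeletal muscle genes took 0.0282 to 0.0422% in OBC WT and 0.00439 to 0.0119% in MSC WT. Neither list had a tested member. Schwann cell and neural genes took 0.0613 to 0.0974% in OBC WT and 0.00803 to 0.0139% in MSC WT. The 1 tested gene of that list was higher in OBC WT (log2 fold change 5.72) and in OBC of the Wnt5a niches (4.43), past edgeR's test in both. Since the list was scarce in MSC, the size of these folds is loose. In the Wnt5a niches the whole list took 0.00729 to 0.112% of UMIs in OBC and 0.00621 to 0.015% in MSC, and these ranges overlapped.

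The contrast of OBC with MSC was measured a second time in the Wnt5a niches, in other libraries, although all 18 niche libraries share the gene filter and the estimate of spread. Fitted alone, the 6 WT libraries gave 215 calls among 438 tested genes. In the Wnt5a niches, with all 18 libraries fitted, 54 of 1099 genes (4.91%) passed edgeR's test, 37 higher (3.37%) and 17 lower (1.55%) in OBC. Of the 298 genes called in WT, 278 (93.3%) had the same sign in the Wnt5a niches, beside 544 of the 801 genes not called in WT (67.9%). Called in the same direction in both genotypes were 47 genes, 36 higher and 11 lower, which are 87% of the Wnt5a calls and 15.8% of the WT calls. The genes called higher in WT had a median log2 fold change of 1.13 in the Wnt5a niches, against 2.31 in WT, and the lower genes -1.19 in the Wnt5a niches, against -2.33 in WT. Since the genes were chosen by their WT values, the WT medians are raised by that choice. With 1 library left out the Wnt5a count ran from 8 to 52, and it was 19, 33 and 17 without MSC Wnt5a replicates 4, 5 and 6, and 19 and 8 without OBC Wnt5a replicates 10 and 11.

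Col1a1 had 2133, 3038 and 1013 CPM in OBC Wnt5a, against 146, 915 and 245 CPM in MSC Wnt5a (2.13, edgeR adjusted p = 0.00715). Hp (3.41), Slc17a9 (4.02), Ibsp (3.04) and Cxcl12 (1.71) were higher there too, each past edgeR's test. Among the lower genes, Cd36 (-2.38, edgeR adjusted p = 0.00715) and Pi16 (-3.90, edgeR adjusted p = 0.0366) passed again, while Kdr (-1.12), Gpihbp1 (-1.23) and Ly6a (-0.54) kept their sign and did not pass. Endothelial genes took 0.609 to 1.44% of UMIs in OBC Wnt5a and 2.16 to 2.7% in MSC Wnt5a.

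**Figure D5:**
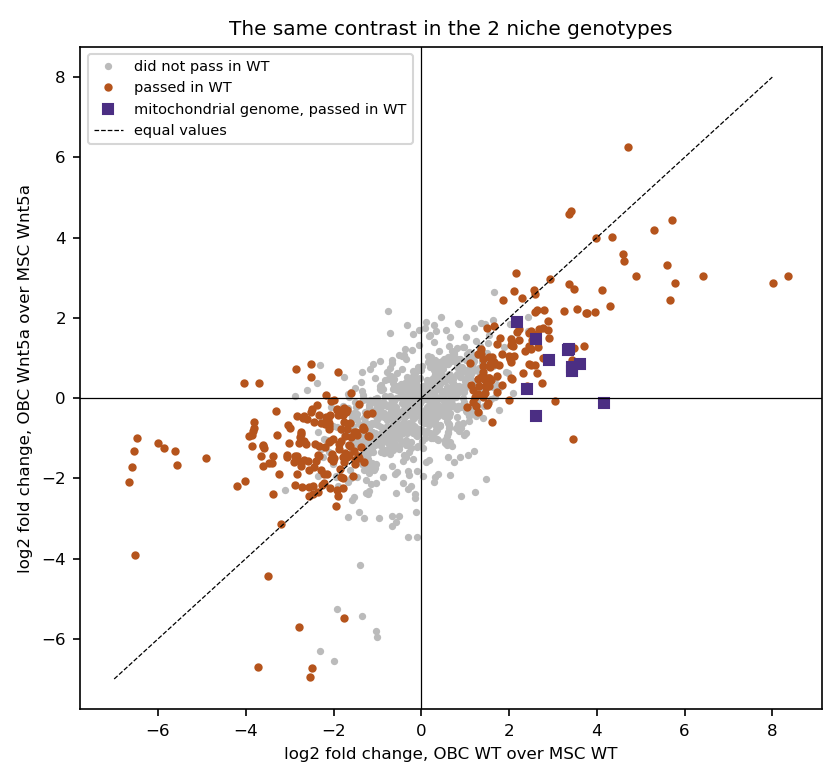
Log2 fold change of OBC over MSC in the WT niches (horizontal axis) and in the Wnt5a niches (vertical axis) for the 1099 genes tested, with genes that passed in WT in orange, mitochondrial genes among them as purple squares and equal values on the dashed line. Of the 298 genes that passed in WT, 278 have the same sign in both, and all 11 mitochondrial genes that passed in WT lie below the line.

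The interaction of population and niche genotype, the test of whether the OBC against MSC difference differs between niches, was passed by 4 of 1099 genes (0.364%) in edgeR, and 96 genes had an unadjusted p under 0.05. They are mt-Nd5, mt-Nd1 and 2 pseudogenes of chromosome 2, Gm13340 and Gm13341, which share 46.6% and 49% of their 30-base words with mt-Co1 and mt-Co2, so that reads may have been split between the copies. Mitochondrial genes of the list took 3.49 to 8.12% of UMIs in OBC Wnt5a and 2.53 to 4.25% in MSC Wnt5a, against 11.5 to 16.6% in OBC WT and 1.58 to 2.12% in MSC WT. Mt-Nd5 had 388, 405 and 127 CPM in OBC Wnt5a, against 146, 440 and 385 CPM in MSC Wnt5a, and the groups overlapped there. Of the 9 listed mitochondrial genes, 0 were called in the Wnt5a niches and 9 in WT. Among all 13 tested mitochondrial genes, mt-Tp, a transfer RNA gene, was the only 1 that passed in the Wnt5a niches.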

How the data were processed

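UMI counts per Ensembl gene were deposited by the authors in 1 table of 18 niche libraries. Per the labels' protocols, sorted cells went into lysis buffer and their cDNA was barcoded, pooled, pre-amplified and made into libraries with Nextera XT. The submitters' processing notes name STAR and featureCounts and the builds mm10 and GRCm38. Tool versions, the collapsing of UMIs, the annotation release and the use of strand: not given in the sources used here. Gene symbols from GENCODE (GRCm38) were found for 17973 of 18194 IDs, which also gave the coordinates. In all, 2264 genes were at 0 in every library, and 28 spike-in entries (0 to 8 UMIs per library) were kept out. Gapdh had 0 UMIs in the 6 libraries compared, so a gene listed at 0 need not be silent.

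One edgeR model (version 4.0.16, R 4.3.3) gave each of the 6 niche groups its own mean, with all 18 libraries sharing the estimate of spread. Libraries were scaled by TMM, genes were kept by filterByExpr (counts of at least 10, totals of at least 15), and the robust quasi-likelihood test was adjusted by Benjamini-Hochberg over 1099 genes at a threshold of 0.05. The common biological coefficient of variation was 0.318. The SE of a fold change was obtained from its F statistic. The same model gave the WT contrast, the Wnt5a contrast and their interaction, and CPM were computed from the deposited counts. Intervals are exact at 95% and cover counting error only. The procedure was tested on simulated counts. Replicates differed by more than sampling noise, so each library was counted once. DESeq2 1.42.0 and limma 3.58.1 served as alternatives.

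Members and gene lists were chosen with earlier results of these data known. The text draws on the 15 genes in each direction with the lowest p and an absolute log2 fold change over 1, up to 4 tested members per list, the interaction genes, Ly6a, Alcam and Pecam1. Outside this rule, and chosen after their values were seen, are Tnc, Sparc, Kitl, Nos3, Plvap, Cdh5, Flt1, Pi16, Clec3b, Gsn, Bgn, Dcn, Fn1, Col4a1, Camp, Gas6, Snora73b, mt-Rnr2, mt-Tp and genes below the filter that are given by UMIs. Not every gene that the rule names is reported here. Lists of osteoclast, megakaryocyte, T and NK cell, glycolysis, chondrocyte and skeletal muscle genes had 0 tested members. Of 9 tested replication and mitosis genes 1 was higher (Anp32b), and of 10 tested proteases and inhibitors 1 was higher and 2 were lower. Of 2 tested monocyte and macrophage genes 1 was higher and 1 lower, as was the case for 2 tested adipocyte genes. None of 2 tested pericyte genes and 1 shared leukocyte gene passed edgeR's test. The blood stem cell libraries were not used here.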

Additional observations from a re-analysis of the deposited data

Results flagged for a closer look

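In 4 genes the OBC against MSC difference itself differed between niche genotypes, by the interaction term in edgeR. Each value is the log2 fold change of OBC over MSC in the Wnt5a niches minus that in WT. It was -4.29 for mt-Nd5 (SE 0.83, edgeR adjusted p = 0.00375), with -0.13 in the Wnt5a niches, against 4.16 in WT. For mt-Nd1 it was -2.67 (SE 0.63, edgeR adjusted p = 0.0276). This gene had 4073, 4253 and 2025 CPM in OBC Wnt5a and 1094, 2642 and 2274 CPM in MSC Wnt5a, against 16945, 29138 and 7073 CPM in OBC WT and 2175, 1423 and 1340 CPM in MSC WT. The pseudogenes gave -3.11 for Gm13340 (SE 0.64, edgeR adjusted p = 0.00452) and -4.46 for Gm13341 (SE 0.86, edgeR adjusted p = 0.00375). For mt-Nd5 and mt-Nd1 every OBC WT library lay above every library of OBC Wnt5a, MSC Wnt5a and MSC WT.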

How the results depend on the processing

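No paired analysis was run, because the replicate numbers of the OBC and MSC libraries are all different and no label links them. If OBC and MSC libraries came from the same animals, the model leaves that pairing out. The 298 genes called in WT were 332 with RLE scaling, 291 with DESeq2, 295 with limma voom, 205 with a minimum count of 20 and 192 to 289 with 1 library left out. Without a filter on low counts they were 235, 78 higher and 157 lower. Of 90 named genes called in WT, 70 kept the call without OBC WT replicate 8 and 76 or more did in the other fits that left out 1 library; none changed sign in any setting in which it was tested. The 85 calls over all lists ran from 65 to 95. The 54 calls in the Wnt5a niches were 25 without the filter, 31 when only their 6 libraries were fitted and 8 to 52 with 1 library left out. The 4 interaction genes were 8 without the filter, 7 with DESeq2, 2 without the abundant variable transcripts (mt-Nd5 and mt-Nd1 are then not tested) and 2 to 9 with 1 library left out, 2 without OBC WT replicate 7 and 9 without OBC WT replicate 9. The difference in genes detected at equal depth was -189.5 without those transcripts, at a lower depth, and ran from -815.5 to -681.8 with 1 library left out. With totals taken without haemoglobin, mitochondrial and ribosomal RNA overlapping transcripts, endothelial genes held 1.39% of UMIs in OBC WT and 4.44% in MSC WT, against 0.954% and 3.87% of all UMIs. Unless stated, the cause was not tested. The shallow OBC WT libraries, at 10635 to 29772 UMIs, limit what can be seen of genes low in OBC.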

Other observations

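Gas6, a ligand of the TAM receptor kinases, was chosen after its values were seen. It stood at 3088, 4173 and 1999 CPM in OBC WT, against 766, 1230 and 734 CPM in MSC WT (log2 fold change 1.80 with SE 0.40; edgeR adjusted p = 0.000594). It was higher in OBC of the Wnt5a niches too (1.51, edgeR adjusted p = 0.0264). The WT call was lost without a filter on low counts. Snora73b, a small nucleolar RNA, also chosen after its values were seen, had 9, 19 and 12 UMIs in OBC WT and 2, 3 and 1 in MSC WT (4.11, SE 0.66, edgeR adjusted p = 4.87e-06). Klf4, a transcription factor of endothelium and other tissues, had 1, 2 and 0 UMIs in OBC WT and 22, 28 and 66 in MSC WT, a fold of 14.7 lower (4.9 to 72.2; edgeR adjusted p = 0.000506).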
